A study of Mus musculus with 12 samples.

Results

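The mast cell genes of mouse inguinal fat (inguinal white adipose tissue, iWAT, which lies under the skin) are described here. The set holds 10 genes, and all 10 were found by symbol among the 33200 genes of the iWAT count table. They are Kit, Fcer1a, Ms4a2, Mrgprb1, Mrgprb2, Hdc, Mcpt4, Cma1, Tpsb2 and Cpa3. Mcpt4 and Cma1 lie on chromosome 14 and Mrgprb1 and Mrgprb2 on chromosome 7, and the others each lie on a different chromosome (Tpsb2 on 17, Cpa3 on 3, Kit on 5, Fcer1a on 1, Ms4a2 on 19 and Hdc on 2). They were chosen by name as products of mast cells, with their normalised levels in these same knockout and wild-type libraries already in view. Their values are therefore given as a description, and no test of them is offered as support. The table compares 3 libraries from mice with a global Nrep knockout (Nrep-/-, made by CRISPR/Cas genome editing, here KO) with 3 from wild-type C57BL/6 mice (here WT). All of these mice were 16 weeks old, ate a standard maintenance diet and were kept under specific-pathogen-free conditions with a light and dark cycle. The knockout is global and not restricted to one cell type, and neither the deleted part of Nrep nor the number of founder lines is described in the labels. The 3 libraries of each genotype are described as biological replicates. The 6 liver samples of the series were not analysed here.

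Mast cells are tissue-resident immune cells that mature locally under stem cell factor, the ligand of the receptor tyrosine kinase Kit. They store histamine, heparin and proteases in granules and release them when IgE bound to the high-affinity IgE receptor is crosslinked, or when Mrgpr-family receptors meet basic peptides and drugs. In mice, connective tissue mast cells carry the chymases Mcpt4 and Cma1, the tryptase Tpsb2 and the carboxypeptidase Cpa3, whereas mucosal mast cells carry Mcpt1 and Mcpt2. In fat they lie along vessels, nerves and collagen bundles.

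The libraries held 17970451 to 20369345 counts each. Nrep, the targeted gene, had 2, 2 and 5 counts in KO replicates 1, 2 and 3 and 1300 to 1640 in the WT libraries. One KO library stood apart: on the first principal component, with 61.6% of the variance, KO replicate 2 lay at -1.61, KO replicates 1 and 3 at -50.2 and -71.6, and the WT libraries at 25.4 to 54.2. Counts of genes called are given with and without it; without it edgeR called 10.9% of all tested genes lower and 14.5% higher.

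Most mast cell transcripts were lower in the KO fat, and Kit was not. The 10 genes together held 87.9, 94.9 and 110.2 CPM (read counts normalised for library size and composition) in KO replicates 1, 2 and 3, against 147.6, 166.1 and 137.5 CPM in WT replicates 1, 2 and 3. Without Kit the other 9 held 72.3 ± 12.4 CPM in KO and 127.4 ± 12.3 CPM in WT (SD, n = 3 each), so the KO mean was 0.567 times the WT mean. The log2 ratio of the means of all 10 genes was -0.62, and -0.55 without KO replicate 2. The granule proteases made up most of this sum, with 65.2 ± 12.1 CPM in KO and 109.5 ± 7.42 CPM in WT. Because these are bulk samples, fewer mast cells and less RNA per mast cell cannot be told apart.

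**Figure D1:**
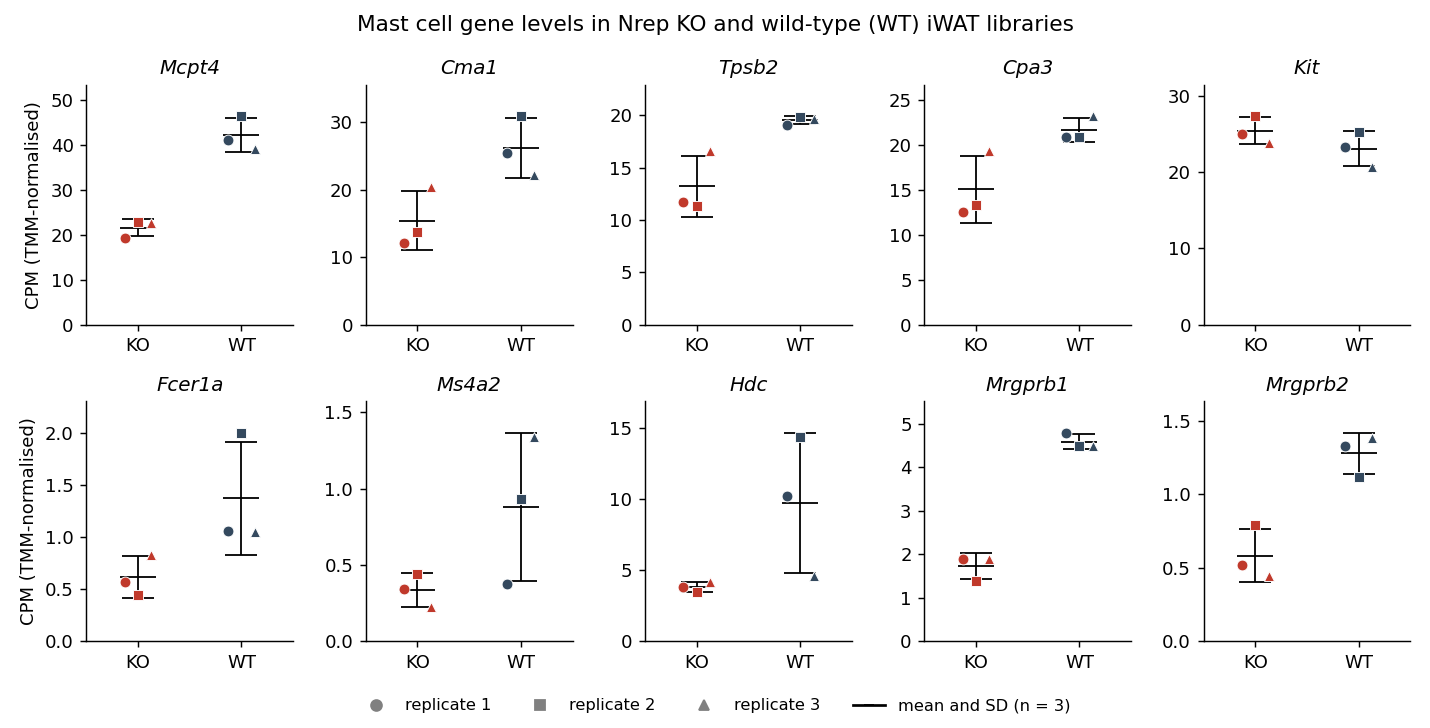
Normalised level (CPM, each axis from 0) of the 10 mast cell genes in the KO and WT iWAT libraries. Points are libraries, with the mean and SD (n = 3) in black. The groups do not overlap for 8 genes, all lower in KO, and overlap for Kit and Ms4a2.

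Of the 10 genes, 9 had enough counts to enter the fit across all 16656 tested genes, and Ms4a2 did not. In 8 of these 9 every KO library lay below every WT library, where 13.1% of all tested genes did so. An adjusted p below 0.05 in edgeR's quasi-likelihood test over all genes was reached by 2 of the 9, Mcpt4 and Mrgprb1, both lower in KO, where 1.03% of all tested genes were called, 0.162% lower and 0.865% higher. DESeq2 called 4 of the 9 lower, adding Cma1 and Hdc, where it called 3.60% of all tested genes lower, and limma-voom called 0 of 9, where it called 0.00600% lower. The edgeR count was 0 without KO replicate 1, KO replicate 3, WT replicate 1 or WT replicate 2. In those settings edgeR called only 1, 3, 1 and 1 of all 16656 tested genes, so these zeros say little about the mast cell genes. The count was 3 without KO replicate 2 (with Mrgprb2 added), where 10.9% of all tested genes were called lower. It was 2 without WT replicate 3 (Mcpt4 and Hdc), where 1.38% were called lower and 0.624% higher. Since the genes were chosen with this contrast in view, nothing is read from these counts. Their median log2 fold change was -0.97, that of all tested genes -0.06.

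The label was checked against genes of related cells. Transcripts of the mucosal proteases were close to absent, with at most 1 count of Mcpt1 and 5 counts of Mcpt2 in any of the 6 libraries. Among basophil genes, chosen here after their values were seen, Mcpt8, a protease that marks the cell type, had 0 counts in each KO library and 1, 3 and 1 counts in WT replicates 1, 2 and 3. Prss34, another basophil protease, had 3 to 5 counts per KO library and 5 to 14 per WT library. Transcripts of other listed basophil markers were present, and which cells carried them was not tested. Cd200r3 and Il4 also stood in the mast cell pathway lists described below, so they do not tell basophils from mast cells. Il6ra had 98.8 to 105 CPM in KO and 92.8 to 104 CPM in WT. Itga2 had 6.17 to 8.37 CPM in KO and 8.03 to 8.86 CPM in WT. Cd200r3 had 0.229 ± 0.0997 CPM in KO and 0.842 ± 0.246 CPM in WT (SD, n = 3 each). Its log2 fold change was -1.83 (SE 0.48, edgeR adjusted p = 0.0870). Il4 had 2 to 9 counts per KO library and 2 to 10 per WT library. The part of basophils in the mast cell values was not tested. With Mcpt4, Cma1, Tpsb2 and Cpa3 at 11.3 to 46.3 CPM in every library, the protease pattern was that of connective tissue mast cells.

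The sequences just upstream of the genes differed in whether they held AGATAA or TGATAA, letters that GATA factors can bind. GATA2 is a transcription factor required in mast cells, and its family recognises A or T, then GATA, then A or G. Only the forms ending in A were searched. The RefSeq table (GRCm38.p6) held a promoter window for 9 of the 10 genes, and the 250 bases before the annotated start were searched on both strands for AGATAA or TGATAA. A match was present in 5 of 9 windows, those of Mcpt4, Cpa3, Fcer1a, Ms4a2 and Mrgprb2, and in 16.6% of all 32851 windows in the table. The E-box letters CATGTG or CACGTG, which can be bound by the mast cell factor MITF, were present in 1 of 9 windows, that of Fcer1a, and in 17.6% of all windows. TATAAA on the gene's strand was present in the windows of Mcpt4, Cpa3 and Fcer1a and in 7.59% of all. These matches describe letters and not bound sites. Match letters on either strand are in capitals below. Windows are shown for 2 abundant proteases, an IgE receptor subunit with several matches, a receptor with a match near its start, and Kit. They lie at chr14:56062311-56062560 (minus strand), chr3:20242182-20242431 (minus), chr19:11623720-11623969 (minus), chr7:48558087-48558336 (minus) and chr5:75574737-75574986 (plus), each directly before an annotated transcription start.
Mcpt4 promoter: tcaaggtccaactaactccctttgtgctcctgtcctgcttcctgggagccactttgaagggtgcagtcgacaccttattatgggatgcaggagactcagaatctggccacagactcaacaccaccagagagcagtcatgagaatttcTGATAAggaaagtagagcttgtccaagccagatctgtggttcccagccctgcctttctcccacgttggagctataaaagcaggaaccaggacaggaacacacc
Cpa3 promoter: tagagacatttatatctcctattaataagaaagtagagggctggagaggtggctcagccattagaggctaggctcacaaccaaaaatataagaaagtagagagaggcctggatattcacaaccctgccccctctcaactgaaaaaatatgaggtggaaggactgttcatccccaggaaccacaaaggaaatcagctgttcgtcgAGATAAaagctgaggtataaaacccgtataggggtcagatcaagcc
Ms4a2 promoter: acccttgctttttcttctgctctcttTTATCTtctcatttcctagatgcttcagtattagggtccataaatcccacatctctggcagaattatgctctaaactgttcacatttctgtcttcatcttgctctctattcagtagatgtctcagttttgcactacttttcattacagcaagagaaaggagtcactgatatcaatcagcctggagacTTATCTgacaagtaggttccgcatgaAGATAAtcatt
Mrgprb2 promoter: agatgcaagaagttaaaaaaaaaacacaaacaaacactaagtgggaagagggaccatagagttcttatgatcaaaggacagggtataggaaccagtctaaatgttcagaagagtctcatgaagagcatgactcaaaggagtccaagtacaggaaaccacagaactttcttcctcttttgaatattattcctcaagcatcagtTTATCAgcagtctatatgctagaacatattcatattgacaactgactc
Kit promoter: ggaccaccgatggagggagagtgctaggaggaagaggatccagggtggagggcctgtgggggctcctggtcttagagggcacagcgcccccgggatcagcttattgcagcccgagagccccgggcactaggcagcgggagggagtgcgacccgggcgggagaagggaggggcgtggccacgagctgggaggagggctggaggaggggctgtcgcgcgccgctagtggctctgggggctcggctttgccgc
The Mcpt4 match began 103 bases upstream of the start, with TATAAA beginning 32 bases upstream, and the Cpa3 match began 46 bases upstream, with TATAAA beginning 31 bases upstream. Ms4a2 held 3 matches, beginning 224, 37 and 11 bases upstream, and Mrgprb2 held 1 that began 48 bases upstream. The Kit window held neither AGATAA nor TGATAA. The windows of Cma1, Hdc and Mrgprb1 held neither of them, but did hold AGATAG or TGATAG on either strand, forms outside the search.

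Kit encodes the receptor for stem cell factor and is the growth and survival receptor of mast cells. Its level was 25.1, 27.3 and 23.8 CPM in KO replicates 1, 2 and 3, against 23.3, 25.2 and 20.6 CPM in WT replicates 1, 2 and 3. The groups overlapped, and the KO mean of 25.4 ± 1.78 CPM lay slightly above the WT mean of 23.1 ± 2.31 CPM (SD, n = 3 each). The fitted log2 fold change was 0.14 with a standard error (SE) of 0.13, and it stayed between 0.01 and 0.21 over 15 alternative settings. Kit is also made by other cells, among them melanocytes. The 6 melanocyte markers examined summed to 1.92 to 2.61 CPM in KO and 1.28 to 2.05 CPM in WT, with Dct at 0.778 to 1.08 CPM in KO and 0.532 to 0.573 CPM in WT. Which cells carried the Kit transcripts was not tested.

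The receptor subunits specific to IgE binding and signalling had low counts. Fcer1a, the chain that binds IgE, had 10, 9 and 15 counts in KO replicates 1, 2 and 3 and 20, 43 and 22 counts in WT replicates 1, 2 and 3. That corresponded to 0.617 ± 0.199 CPM in KO and 1.37 ± 0.548 CPM in WT (SD, n = 3 each), with every KO library below every WT library. Ms4a2, the beta chain, which amplifies the signal, had 6, 9 and 4 counts in KO and 7, 20 and 28 counts in WT. The Ms4a2 groups overlapped on the CPM scale, where WT replicate 1 at 0.372 CPM lay below KO replicate 2 at 0.443 CPM. Summed over libraries there were 19 Ms4a2 counts in KO and 55 in WT, too few for the fit. For scale, a floor of 3 counts corresponds to 0.140 to 0.172 CPM on the normalised scale over the 6 libraries, counting error only.

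Mrgprb1 and Mrgprb2 belong to the same family of G protein-coupled receptors, and Mrgprb2 is the mouse counterpart of human MRGPRX2, through which basic drugs and peptides degranulate mast cells. Mrgprb1 stood at 1.89, 1.38 and 1.89 CPM in KO replicates 1, 2 and 3, against 4.79, 4.48 and 4.49 CPM in WT replicates 1, 2 and 3. The WT libraries were close together, and the KO mean of 1.72 ± 0.295 CPM was 0.375 times the WT mean of 4.59 ± 0.176 CPM, the lowest ratio among the 10 genes (log2 fold change -1.41, SE 0.24). Mrgprb2 stood at 0.516, 0.788 and 0.445 CPM in KO, from 9, 16 and 8 counts, against 1.33, 1.12 and 1.39 CPM in WT, from 25, 24 and 29 counts. It was thus lower in each KO library as well, with a log2 fold change of -1.11 (SE 0.35). Mrgprb1 counts exceeded Mrgprb2 counts in every library, by 1.75- to 4.25-fold. Of the 31-base words in the longest annotated transcript, 2.53% for Mrgprb1 and 0.293% for Mrgprb2 also occur in transcripts of another gene.

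Hdc encodes histidine decarboxylase, the enzyme that makes histamine. It had 3.84, 3.45 and 4.17 CPM in KO replicates 1, 2 and 3, against 10.2, 14.4 and 4.59 CPM in WT replicates 1, 2 and 3. The KO libraries were alike, and WT replicate 3 lay just above them while WT replicates 1 and 2 were far higher. The means were 3.82 ± 0.360 CPM in KO and 9.72 ± 4.91 CPM in WT (SD, n = 3 each), with a log2 fold change of -1.35 (SE 0.39). Leaving out 1 library gave log2 fold changes from -1.69, without WT replicate 3, to -0.95, without WT replicate 2. Neutrophils, basophils and macrophages can also express Hdc. The macrophage gene Cd68, named after its values were seen, ordered the WT libraries the same way, at 47.5, 53.6 and 49.4 CPM in KO and 135, 182 and 73.7 CPM in WT, and its part and that of other cells in the Hdc values was not tested.

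The chymases Mcpt4 and Cma1 were the most abundant mast cell transcripts per length. Mcpt4, which cleaves after aromatic residues, had 19.3, 22.7 and 22.5 CPM in KO replicates 1, 2 and 3, against 41.1, 46.3 and 38.9 CPM in WT replicates 1, 2 and 3. The gap between the highest KO and the lowest WT library was wider than the spread within either group, at means of 21.5 ± 1.90 CPM in KO and 42.1 ± 3.79 CPM in WT (SD, n = 3 each). Cma1, also known as mouse mast cell protease 5, had 12.1, 13.7 and 20.3 CPM in KO and 25.4, 30.9 and 22.2 CPM in WT. For Cma1, KO replicate 3 came close to WT replicate 3, and the log2 fold change was -0.77 (SE 0.22), against -0.97 (SE 0.13) for Mcpt4. Of their 31-base words, 12.2% for Mcpt4 and 10.6% for Cma1 also occur in transcripts of other genes. The partner that shares most of the Mcpt4 words, Cma2, had 0 or 1 count in every library.

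Tpsb2, a tryptase stored with heparin as mouse mast cell protease 6, had 11.7, 11.3 and 16.6 CPM in KO replicates 1, 2 and 3, against 19.1, 19.8 and 19.7 CPM in WT replicates 1, 2 and 3. Cpa3, the granule carboxypeptidase, had 12.6, 13.3 and 19.3 CPM in KO, against 20.9, 20.9 and 23.2 CPM in WT. In both genes KO replicate 3 stood nearer to WT than the other KO libraries did, without crossing it. Their differences were the smallest of the genes lower in KO, with log2 fold changes of -0.56 (SE 0.17) for Tpsb2 and -0.53 (SE 0.18) for Cpa3. Tpsab1, another granule tryptase, had 4, 9 and 15 counts in KO and 22, 45 and 16 counts in WT. Adding it to Tpsb2 gave 13.7 ± 3.23 CPM in KO and 20.9 ± 0.908 CPM in WT.

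The genes differed in how far they were lower. Mcpt4 made up 34.7%, 37.2% and 28.6% of the protease sum in KO replicates 1, 2 and 3, against 38.6%, 39.3% and 37.4% in WT replicates 1, 2 and 3. The groups did not overlap, although KO replicate 2 lay within 1 percentage point of WT replicate 3. Cma1 held 23.3% ± 2.17 in KO and 23.8% ± 2.41 in WT, Cpa3 held 23.0% ± 1.43 in KO and 19.9% ± 2.29 in WT, and Tpsb2 held 20.2% ± 1.44 in KO and 17.9% ± 1.06 in WT, with overlap in all 3 genes. Set against Kit in the same library, which needs no scaling between libraries, Mcpt4 stood at 0.771, 0.831 and 0.944 in KO and 1.77, 1.84 and 1.89 in WT. The Cpa3 to Kit ratio was 0.501, 0.486 and 0.811 in KO and 0.897, 0.830 and 1.12 in WT, so KO replicate 3 came close to WT replicate 2.

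**Figure D2:**
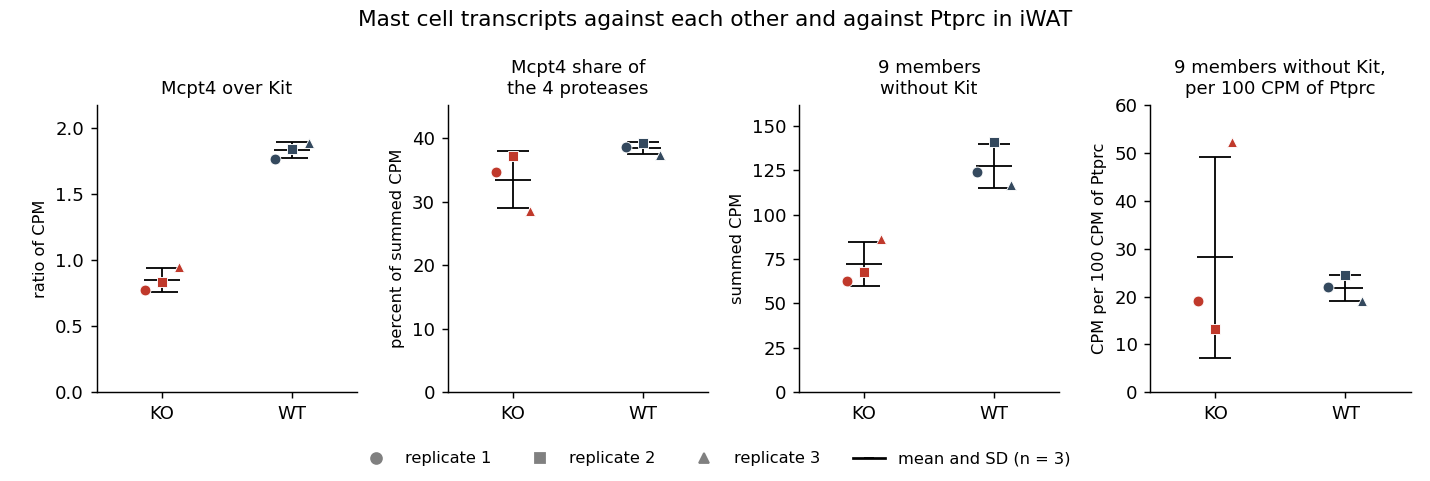
From left to right, the Mcpt4 to Kit ratio, the Mcpt4 share of the 4 granule proteases in percent, the summed CPM of the 9 genes without Kit, and that sum per 100 CPM of the pan-leukocyte gene Ptprc, each in KO and WT libraries with mean and SD (n = 3). The first 3 measures do not overlap between groups, and in the last KO replicate 3 stands alone at 52.3 while the other libraries lie between 13.3 and 24.5.

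Levels were compared between genes per kilobase of annotated exon. In KO the order was Mcpt4 at 19.4, Cma1 at 14.1, Cpa3 at 9.93, Tpsb2 at 8.29, Kit at 2.85, Fcer1a at 0.618, Hdc at 0.598, Mrgprb1 at 0.411, Mrgprb2 at 0.281 and Ms4a2 at 0.120 CPM per kb. In WT it was Mcpt4 at 38.0, Cma1 at 24.0, Cpa3 at 14.3, Tpsb2 at 12.3, Kit at 2.59, Hdc at 1.52, Fcer1a at 1.38, Mrgprb1 at 1.10, Mrgprb2 at 0.615 and Ms4a2 at 0.313 CPM per kb. Fcer1a and Hdc stood in opposite order in the genotypes. In WT the ranges of mean and SD overlapped for Hdc (1.52 ± 0.768), Fcer1a (1.38 ± 0.549) and Mrgprb1 (1.10 ± 0.042 CPM per kb, SD, n = 3). In KO the ranges of mean and SD overlapped for Mcpt4 (19.4 ± 1.71) and Cma1, whose SD was the largest of the 10, for Cma1 and Cpa3 (9.93 ± 2.45), and for Cpa3 and Tpsb2 (8.29 ± 1.85 CPM per kb, SD, n = 3). They also overlapped there for Fcer1a (0.618 ± 0.199) with Hdc (0.598 ± 0.056) and with Mrgprb1 (0.411 ± 0.071), and for Mrgprb1 with Mrgprb2 (0.281 ± 0.087 CPM per kb, SD, n = 3). Lengths were taken from an annotation that may not be the one used for counting.

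The wider mast cell pathway was described with 84 other genes in 8 lists ordered by role, of which 81 were in the table and 68 had enough counts to be tested. The lists were drawn up with earlier results of these data known. None passed an adjusted p of 0.05 over all genes in edgeR's quasi-likelihood test, where 0.162% of all tested genes were called lower and 0.865% higher. Limma-voom called 0, where it called 16 of all 16656 tested genes. At an unadjusted p under 0.05 in edgeR, 24 were lower, against 9.79% of all tested genes, and 5 higher, against 12.8%. DESeq2 called 15 lower, against 3.60% of all tested genes, and 2 higher, against 7.34%. Negative log2 fold changes were found for 54 of the 68, against 55.8% of all tested genes, with a median of -0.47. Every KO library lay below every WT library for 18 of them, against 13.1% of all tested genes, and above for 5, against 15.2%. Without KO replicate 2 edgeR called 26 lower and 5 higher, where it called 10.9% of all tested genes lower and 14.5% higher. Without WT replicate 3 it called 5 lower, where it called 1.38% of all tested genes lower. Without any other single library it called 0, where it called 1 to 3 of all tested genes.

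Among receptors, 12 of 13 tested genes had negative log2 fold changes, against 55.8% of all tested genes. None passed in edgeR, where 0.162% of all tested genes were called lower. Without KO replicate 2 edgeR called 7 lower and Enpp3 higher, where it called 10.9% of all tested genes lower and 14.5% higher. Fcer1g, the gamma chain that the IgE receptor shares with other Fc receptors of myeloid cells, had 28.3, 32.7 and 28.5 CPM in KO replicates 1, 2 and 3, against 77.0, 94.9 and 38.7 CPM in WT replicates 1, 2 and 3 (edgeR adjusted p = 0.0750). Il1rl1, the receptor for the alarmin IL-33, had 8.95, 7.78 and 8.50 CPM in KO, against 81.1, 74.4 and 12.7 CPM in WT (log2 fold change -2.74, SE 0.61, edgeR adjusted p = 0.0665). In both genes the KO libraries were alike and WT replicate 3 lay below the other WT libraries. It did so too for Hdc and for the macrophage gene Cd68. Without WT replicate 3, Il1rl1 and Fcer1g were called lower in edgeR, at log2 fold changes of -3.21 and -1.53. Csf2rb and Csf2rb2, near-identical cytokine receptor chains whose reads may be split uncertainly, had log2 fold changes of -0.61 and -0.69. Enpp3, an ectoenzyme found on mast cells and basophils and named after its values were seen, was higher in every KO library, at 9.51 ± 2.25 CPM in KO and 5.55 ± 0.223 CPM in WT (edgeR adjusted p = 0.0905).

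Of the enzymes for amines and eicosanoids, 6 of 9 lay lower in every KO library, against 13.1% of all tested genes. None passed in edgeR, where 0.162% of all tested genes were called lower. Without KO replicate 2 edgeR called 3 lower and 2 higher, where it called 10.9% of all tested genes lower and 14.5% higher. Pla2g4a, which frees arachidonic acid, had 10.9, 10.2 and 10.1 CPM in KO replicates 1, 2 and 3, against 24.8, 25.7 and 15.5 CPM in WT replicates 1, 2 and 3 (log2 fold change -1.08, SE 0.21, edgeR adjusted p = 0.0562). Alox5ap, the partner of 5-lipoxygenase in leukotriene synthesis, had 27.9 ± 3.16 CPM in KO and 62.7 ± 24.2 CPM in WT (SD, n = 3 each, edgeR adjusted p = 0.0735). Tph1, which starts serotonin synthesis and is named here after its values were seen, had 6, 19 and 10 counts in KO and 32, 41 and 49 counts in WT, with a log2 fold change of -1.67 (SE 0.40, edgeR adjusted p = 0.0721). Hpgds, the prostaglandin D2 synthase of mast cells, also named after its values were seen, had 5.65 ± 1.17 CPM in KO and 9.62 ± 0.663 CPM in WT. Ltc4s, which makes leukotriene C4, and Hnmt, which inactivates histamine, had positive log2 fold changes of 0.40 and 0.70 with overlapping groups. Without KO replicate 2 these were 0.69 and 0.99, and both were called higher in edgeR.

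Of 9 tested granule matrix and storage genes, 7 had negative log2 fold changes, against 55.8% of all tested genes. None passed in edgeR, where 0.162% of all tested genes were called lower. Without KO replicate 2 edgeR called 1 lower, Srgn, at -0.85, where it called 10.9% of all tested genes lower. Srgn, the proteoglycan core that holds proteases in the granule and is made by many leukocytes, had 131 ± 35.8 CPM in KO and 209 ± 31.2 CPM in WT (edgeR adjusted p = 0.126). Cd63, Vamp8 and Ndst1, of granule membranes and heparan sulphate sulphation, had log2 fold changes of -0.45, -0.34 and -0.11. Of the other proteases, Gzma and Gzmb, granzymes of lymphocytes, differed by less than their SE, at 0.04 and -0.33. Dpp4, a peptidase that adipose progenitors also express, had 71.6 ± 4.22 CPM in KO and 99.3 ± 6.55 CPM in WT (edgeR adjusted p = 0.0751), and was called lower without KO replicate 2, at a log2 fold change of -0.37.

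The transcript of stem cell factor did not separate the groups, and its protein was not measured. Kitl, its gene, had 75.2, 49.4 and 67.1 CPM in KO replicates 1, 2 and 3, against 54.7, 49.6 and 84.8 CPM in WT replicates 1, 2 and 3, with a log2 fold change of 0.02 (SE 0.24). Il33, the ligand of Il1rl1, had 30.0 ± 3.86 CPM in KO and 47.1 ± 12.5 CPM in WT without overlap (edgeR adjusted p = 0.115). Tslp, an epithelial cytokine that acts on mast cells, had 21, 15 and 28 counts in KO and 15, 18 and 33 counts in WT, with a log2 fold change of 0.11. Among ligands too scarce to test, Il3, a growth factor of mast cells, had 1 count over all libraries.

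Transcription factors had a median log2 fold change of -0.04 over 11 tested genes. Gata2 was higher in every KO library, at 12.3 ± 0.260 CPM in KO and 8.42 ± 1.04 CPM in WT (log2 fold change 0.54, SE 0.16, edgeR adjusted p = 0.102), and Mitf overlapped at 18.4 ± 5.02 CPM in KO and 19.2 ± 2.55 CPM in WT. Both are also expressed outside mast cells and were named after their values were seen. Stat5a, Stat5b, Id2 and Ikzf1 had log2 fold changes of 0.22, -0.06, -0.54 and -0.55. Without KO replicate 2, Id2 (-0.79) and Ikzf1 (-1.08) were called lower and Gata2 (0.62) higher in edgeR. The shares of all tested genes called there were 10.9% lower and 14.5% higher. Of 16 genes that signal below the IgE receptor, 14 had negative values, against 55.8% of all tested genes. Syk stood at -0.72, Lyn at -0.78, Inpp5d at -0.46 and Plcg1 at 0.34. Without KO replicate 2, 12 of the 16 were called lower and 1 higher in edgeR, with Syk at -1.13, Lyn at -1.07 and Inpp5d at -0.84. These kinases and adaptors serve many leukocytes. Of the histamine receptors Hrh1 and Hrh2 had log2 fold changes of -0.51 and -0.48, Hrh4 had 1 to 5 counts per library, and Hrh3 had 1 count over all of them.

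**Figure D3:**
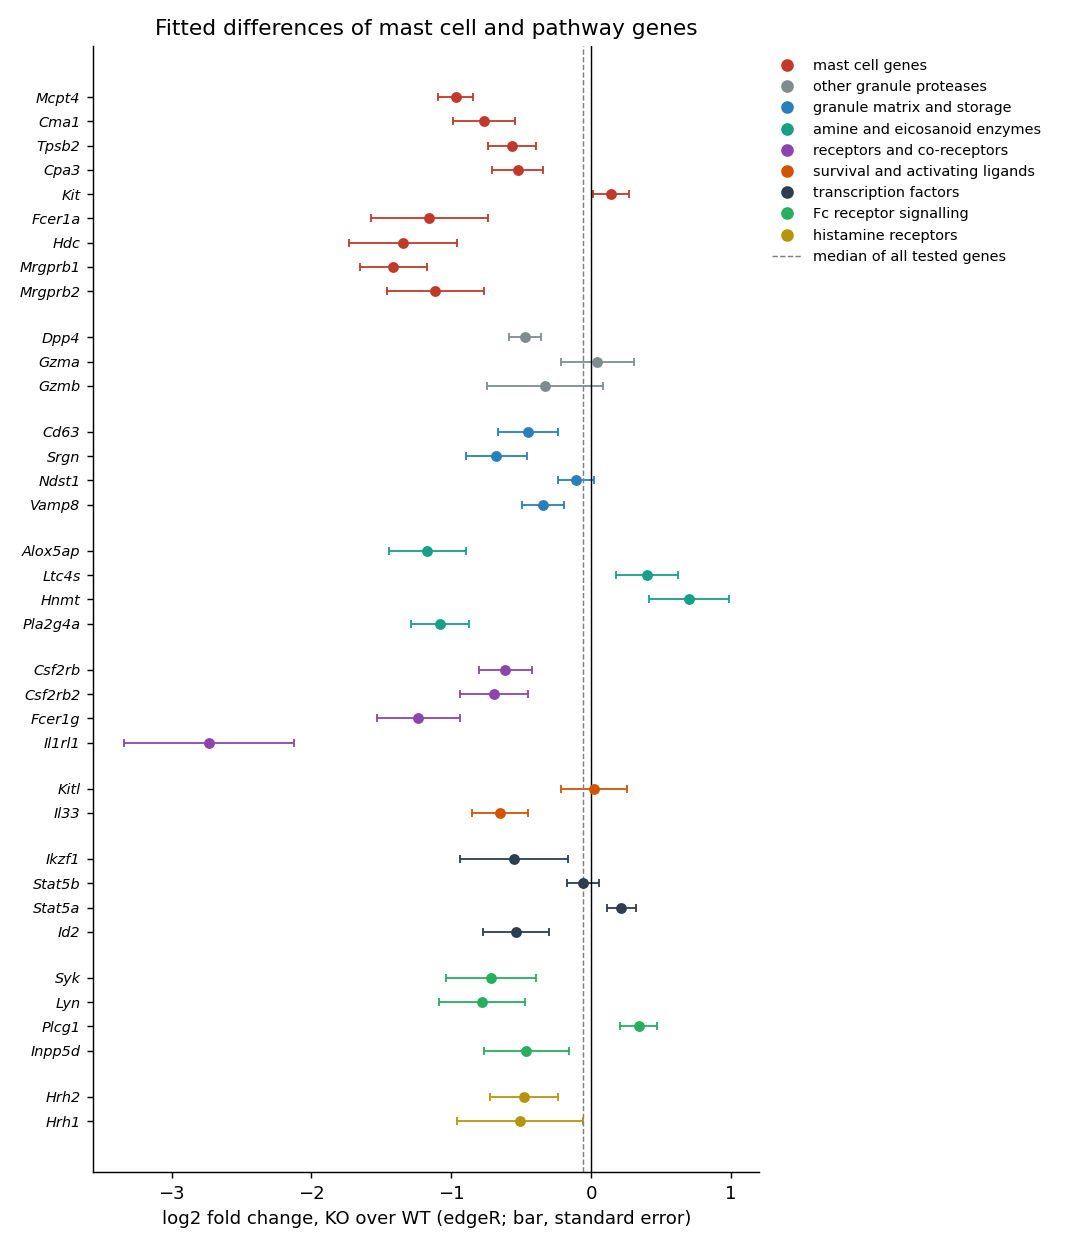
Fitted log2 fold change, KO over WT, with its standard error, for the 9 tested mast cell genes and the most abundant tested genes of 8 pathway lists, those with a mean of at least 2 CPM. The dashed line is the median of all tested genes at -0.06, Kit and Kitl lie near 0, and the other 8 mast cell genes lie to the left of it.

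The summed markers of other cells differed between the genotypes and between single libraries. The 6 pan-leukocyte markers summed to 1208, 2189 and 741 CPM in KO replicates 1, 2 and 3. In WT replicates 1, 2 and 3 they summed to 2236, 2453 and 2084 CPM. In edgeR 0 of 6 passed, where 0.162% of all tested genes were called lower. Without KO replicate 2 all 6 were called lower, where 10.9% of all tested genes were. Among KO libraries the leukocyte sum was highest in replicate 2 and lowest in replicate 3. Kit, Ms4a2 and Mrgprb2 had that same order, while the sum of the 4 proteases was highest in KO replicate 3, at 78.8 CPM. Per 100 CPM of Ptprc, the common leukocyte antigen, the 9 genes without Kit held 19.1, 13.3 and 52.3 CPM in KO and 21.9, 24.5 and 19.0 CPM in WT. On that measure the groups overlapped and KO replicate 3 stood highest. The 9-gene level was thus lower in every KO library in normalised CPM and overlapped per Ptprc.

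Markers of other cells stood as follows. Macrophage markers summed to 1432 to 1888 CPM in KO and 2211 to 3249 CPM in WT. All 6 had negative log2 fold changes, against 55.8% of all tested genes. In edgeR 0 of the 6 passed, where 0.162% of all tested genes were called lower. The 5 B cell markers summed to 432, 971 and 220.0 CPM in KO replicates 1, 2 and 3 and 834 to 944 CPM in WT, and the 8 T cell and innate lymphoid markers to 198 to 486 CPM in KO and 355 to 448 CPM in WT. The 5 markers of eosinophils, which like mast cells take part in allergic responses, summed to 3.11 to 8.18 CPM in KO and 9.70 to 15.9 CPM in WT, with Ccr3 at 1.19 ± 0.601 CPM in KO and 5.10 ± 1.89 CPM in WT (edgeR adjusted p = 0.0625). The macrophage and eosinophil sums did not overlap between genotypes, and the lymphocyte sums did. None of these markers of macrophages, lymphocytes or eosinophils passed in edgeR, and without KO replicate 2 it called 2 of 6 macrophage, 5 of 5 B cell, 5 of 8 T cell and innate lymphoid and 3 of 4 tested eosinophil markers lower, and 1 T cell and innate lymphoid marker higher. In that setting 10.9% of all tested genes were called lower and 14.5% higher. The 6 adipocyte markers summed to 11264 to 19839 CPM in KO and 7737 to 10495 CPM in WT. Endothelial markers summed to 996 to 1190.0 CPM in KO and 820 to 895 CPM in WT, nerve and Schwann markers to 229 to 263 CPM in KO and 141 to 177 CPM in WT, and fibroblast and progenitor markers to 3779 to 7300 CPM in KO and 6726 to 8109 CPM in WT. The adipocyte, endothelial and Schwann cell sums were higher in every KO library, and without KO replicate 2 edgeR called 6 of 6, 2 of 5 and 1 of 5 of their markers higher, against 0 with it. Skeletal muscle markers summed to 3515, 579 and 3174 CPM in KO replicates 1, 2 and 3 and 8.21 to 15.2 CPM in WT. All 6 passed in edgeR as higher, at log2 fold changes of 5.94 to 13.3, where 0.865% of all tested genes were called higher. Without KO replicate 2 all 6 were called higher as well. Keratinocyte markers stayed at 2.01 to 2.41 CPM in KO and 2.01 to 3.06 CPM in WT. The eosinophil gene Epx, the melanocyte gene Mc1r and the keratinocyte genes Krt1 and Ivl had 0 counts in every KO library and 0 to 5 counts in the WT libraries. The part of these differences in tissue make-up in the mast cell values was not tested.

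**Figure D4:**
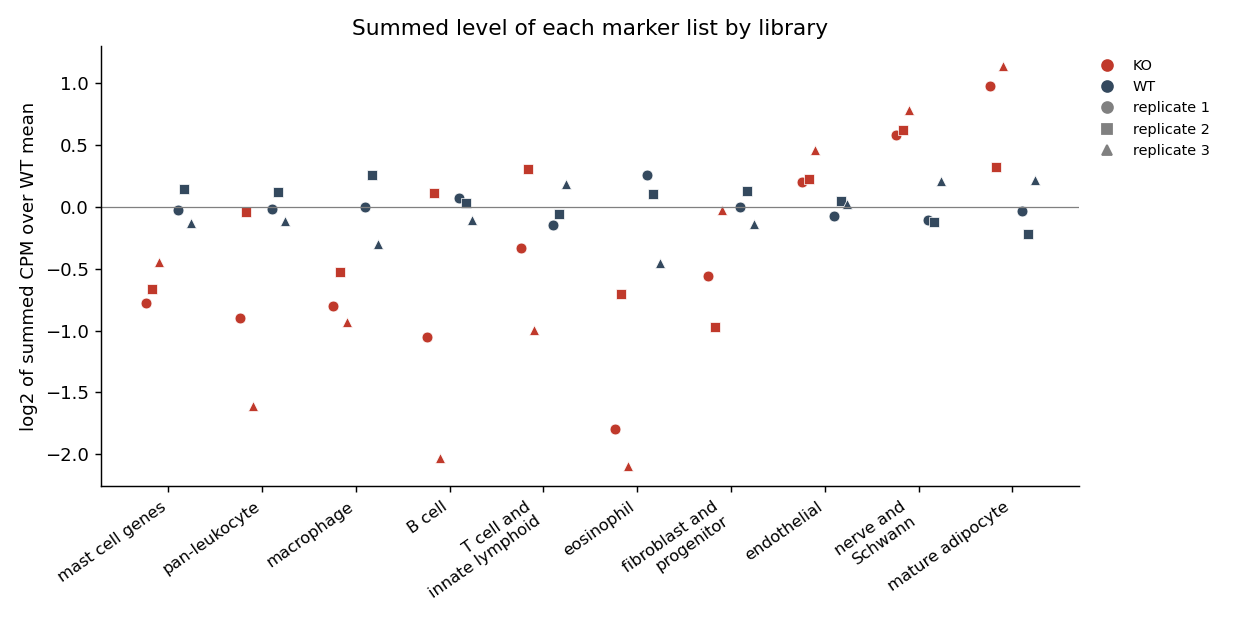
Summed CPM of each marker list in each library, as log2 of its ratio to the WT mean of that list. KO libraries lie below WT for mast cell, macrophage and eosinophil genes and above for adipocyte, endothelial and Schwann cell genes, the pan-leukocyte sum of KO replicate 2 lies among the WT values and its B cell sum above them. Skeletal muscle is left out because its KO values are far off this scale.

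The profile of the mast cell genes over the 6 libraries was also matched to all other tested genes with a symbol. The mean of the 10 genes, on the log2(CPM + 0.5) scale and centred on its own mean, was -0.44, -0.40 and -0.23 in KO replicates 1, 2 and 3 and 0.29, 0.51 and 0.26 in WT replicates 1, 2 and 3. The 4 genes with the smallest root-mean-square difference from it over 6 libraries were Sned1 (0.0433), C1qtnf6 (0.0637), Nfxl1 (0.0677) and Rnf165 (0.0824 log2 units). By the same measure the median of the 14655 genes compared was 0.417. Sned1, an extracellular matrix protein, had 31.2 ± 2.75 CPM in KO and 49.2 ± 4.20 CPM in WT, and C1qtnf6, a secreted protein of the C1q and TNF-related family, had 22.2 ± 3.03 CPM in KO and 37.5 ± 2.72 CPM in WT. Of the mast cell genes themselves, Mcpt4 lay closest to the mean profile (0.14) and Hdc (0.45) and Kit (0.44) farthest from it. Such likeness is a description of 6 libraries.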

How the data were processed

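Poly(A) RNA of 6 iWAT samples was made into stranded libraries by adapter ligation, per the labels' protocols. The authors deposited a table of estimated counts per gene, 1 column per library, neither scaled nor pooled; 9.53% to 11.1% of values per library were not whole numbers. The submitters' processing notes name fastp, featureCounts, GRCm38 and GRCm39 for the whole series, and the quantifier, build and read assignment of this table are not given in the sources used here. Library totals were 18973117, 19668020 and 19783453 counts in KO and 17970451, 20369345 and 20061936 in WT. No 2 libraries held identical values. Symbols came from GENCODE M21 names, matching 26372 of 33200 identifiers (79.4%).

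Estimated counts were rounded and tested with edgeR 4.0.16 (R 4.3.3): TMM, filterByExpr on genotype, quasi-likelihood F-test with robust estimation, two-sided, Benjamini-Hochberg adjustment over all tested genes, threshold 0.05. The SE is the log2 fold change divided by the square root of F. CPM values are TMM-normalised. With library totals alone as scaling, the median over all genes shifted by -0.13 (log2). DESeq2 1.42.0, limma-voom (limma 3.58.1) and other settings were alternatives, and the tests were checked on simulated data. The members and lists were chosen with earlier results of these data known. Named genes are all members, Nrep, up to 4 genes per pathway list and up to 2 per marker list by mean CPM, and the 5 genes nearest in profile; some of these are not reported here. Other genes are named where stated or where their list's check turns on them. Replicates are described as biological, so p-values measure the spread between these samples. Replicate numbers were not taken as pairs. Promoters are RefSeq windows of GRCm38.p6 and exon lengths are GENCODE M21, neither known to be the build of the counts.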

Additional observations from a re-analysis of the deposited data

How the results depend on the processing

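The summed level of the 10 mast cell genes kept its sign and moved by less than the spread between replicates in each of the 15 alternatives run, with log2 ratios of KO over WT from -0.76 (library totals alone) to -0.55. Kit lay at 0.01 to 0.21 and the other 8 tested genes were negative in every alternative that tested them. The count of mast cell genes past the test was 2 as reported, 4 in DESeq2, 4 with no filter on low counts, 1 with at least 10 counts in every library and 0 in limma-voom; leaving out 1 library gave 0 to 3, with 0 without KO replicate 1 or 3 or WT replicate 1 or 2. Of the other pathway genes 0 passed, against 17 in DESeq2, 8 with no filter, 1 with library totals alone (Pla2g4a) and 0 to 31 leaving out 1 library, the highest without KO replicate 2. Over all genes 171 passed (144 higher, 27 lower), against 178 with library totals alone (129 higher, 49 lower). The number over all genes was 1823 in DESeq2, 16 in limma-voom, 1370 with no filter and 35 with at least 10 counts in every library. Leaving out 1 library gave 1 to 4221 (4221 without KO replicate 2, 334 without WT replicate 3, and 1 to 3 without any other). With the replicate number as a block, 1225 genes, 14 other pathway genes and 2 mast cell genes passed; the libraries share only a number, since same-numbered KO and WT libraries correlated at -0.01, 0.20 and 0.11 in their deviations from the group means, and KO replicate 1 correlated best with WT replicate 3. The cause of these shifts was not tested. Counts of 4 to 43 per library limit Fcer1a, Ms4a2 and Mrgprb2, and Ms4a2 has no fitted value outside the setting with no filter, where its log2 fold change was -1.36.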
